A study of Mus musculus with 4 samples.

Results

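Stem-like cells were picked from single-cell RNA libraries of mouse bone marrow by their transcripts: at least 1 Hlf, 2 Mecom and 1 Kit UMI, with few granule protease transcripts. A UMI (unique molecular identifier) counts 1 captured RNA molecule. Besides these 3 genes, the rule asked for Mpo, Elane, Prtn3 and Ctsg below 1% of a cell's UMIs in sum, Camp and Ngp below 0.5%, and no Cd79a UMI. It kept 162 of 31209 cells. Hlf, Mecom and Kit chose the cells, so their levels are given below only as a description.

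All cells sequenced were CD45.2+ and Tet2+/-, from lethally irradiated recipients that received these cells and CD45.1+ Tet2+/+ competitor marrow in equal parts. Loss of 1 copy of Tet2, a DNA-demethylating dioxygenase, is a common lesion of clonal haematopoiesis, and every group carried it. After 1 month of engraftment the recipients were treated for 7 months. Control mice received PBS injections and 100 mM NaCl in the drinking water, and Butyrate mice received PBS and 100 mM sodium butyrate. B12 mice received 0.29 µg vitamin B12 in each of 2 injections per week with NaCl water, and B12+Butyrate mice received both agents. The cells of 3 mice were pooled into 1 library per group, after a sort in which Kit+ and Kit- live CD45.2+ cells were mixed in equal parts. With 1 library per group there was no replicate check and no test was possible. The mixing of Kit+ and Kit- cells sets part of every share of cells, and the wild-type competitor cells were sorted away.

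Blood stem cells sit at the top of haematopoiesis and persist by dividing rarely and renewing themselves. Hlf is a PAR bZIP transcription factor and Mecom a zinc finger factor (the locus of EVI1), both known for being largely restricted to stem cells and early multipotent progenitors in adult marrow. Kit is the receptor for stem cell factor, and Meis1, a homeobox cofactor of Hox proteins, is needed to maintain stem cells.

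The libraries held 8752, 6793, 8048 and 7616 filtered cells, in the order Control, Butyrate, B12, B12+Butyrate, which is the order of all values given in fours. The stem-like cells had a median of 16619.5, 19704.5, 21881 and 22199 UMIs per cell in these libraries, against 11548 to 12512 in all other cells. Summed over the cells, 892139, 1127274, 953026 and 499214 UMIs stand behind the levels below, given as CPM, the UMI count scaled to the same total in every library. Of the 162 cells, 12 were called doublets (3, 3, 6 and 0), where 678, 431, 578 and 492 of all filtered cells were. Any pair of libraries shared 13 to 30 barcodes, but no barcode of a stem-like cell was held by another library. Of the members 9 had exactly 2 Mecom UMIs and 130 had 5 or more, and 13 cells just outside had Hlf but only 1 Mecom UMI (4, 6, 2 and 1). Among cells that met the other limits, 12 had exactly 2 and 37 had 3 or more Mecom UMIs but no Hlf, while 43 had exactly 1 and 38 had 2 or more Hlf UMIs but no Mecom. Exactly 1 Hlf UMI was found in 30 members.

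The share of stem-like cells was lowest in the B12+Butyrate library. They were 50 of 8752 cells in Control (0.571%, exact 95% interval 0.424 to 0.753%), 50 of 6793 in Butyrate (0.736%, 0.547 to 0.969%), 43 of 8048 in B12 (0.534%, 0.387 to 0.719%) and 19 of 7616 in B12+Butyrate (0.249%, 0.150 to 0.389%). The first 3 intervals overlapped one another. The B12+Butyrate interval lay below those of Control and Butyrate and overlapped the lower end of that of B12. Intervals here and below cover counting error only, not the spread between mice. Overlap of intervals does not by itself put a difference within counting error.

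Butyrate and Control differed by a ratio of 1.29 (95% interval 0.872 to 1.90), and B12 and Control by 0.935 (0.623 to 1.40), so neither single treatment differed from Control beyond counting error. With both agents the share was 0.467 times that with B12 alone (0.272 to 0.8005) and 0.339 times that with butyrate alone (0.200 to 0.574). Counted against cells with a Kit UMI, the shares were 2.65, 3.15, 2.08 and 0.981%, and the last 2 ratios were 0.471 and 0.311. With every cell thinned to 5000 UMIs before the gate, 29, 24, 19 and 10 cells remained. The ratio of B12+Butyrate to B12 was then 0.539 with an interval that included 1 (0.251 to 1.16), and that to Butyrate was 0.356 (0.170 to 0.743). The Kit sort, the mice and the treatment cannot be told apart in these shares.

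**Figure D1:**
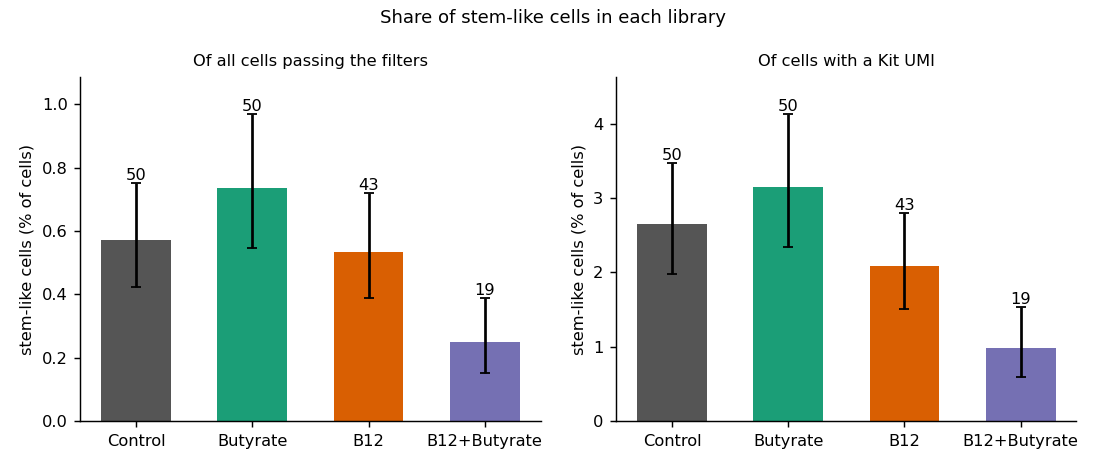
Share of stem-like cells in each library as a percentage of all filtered cells (left) and of cells with at least 1 Kit UMI (right); bars are shares, whiskers exact 95% intervals and numbers above them the stem-like cells. The B12+Butyrate bar is the lowest in both panels, at 0.249% and 0.981%.

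The cells carried other stem cell genes that the rule did not use. Meis1 stood at 993, 767, 805 and 857 CPM in the 4 libraries, and 161 of the 162 cells held at least 1 Meis1 UMI. In Kit+ cells without Hlf and Mecom UMIs and with the same limits on granule transcripts (928 cells) it was 51.6 to 81.6 CPM, and in Kit+ cells with at least 1% granule protease UMIs (921 cells) 28.0 to 43.0 CPM. Thinned to 5000 UMIs, Meis1 was seen in 144 of 160 stem-like cells, in 20.4% and 11.7% of those Kit+ cells, and 0.233% of cells rich in Camp and Ngp, which should lack it. Meis1 was thus high in all 4 libraries, as the label says, although choosing cells by Hlf and Mecom favours genes that go with them.

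Angpt1, the secreted ligand of the Tie2 receptor, was at 2553, 2729, 1870 and 2608 CPM, against 111 to 141 CPM in Kit+ cells without Hlf and Mecom and 47.8 to 67.6 CPM in Kit+ granule cells. Prdm16, a transcriptional regulator required by stem cells, was at 37.0, 55.9, 44.1 and 58.1 CPM and at most 3.65 CPM in both other sets. Hoxa9, the homeobox partner of Meis1, was at 76.2, 80.7, 96.5 and 70.1 CPM against 8.31 to 15.04 CPM. All 3 of these genes were higher than in the other Kit+ cells in every library.

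Mllt3, a reader protein linked to stem cell maintenance, was at 233, 181, 188 and 232 CPM against 91.6 to 112 CPM in Kit+ cells without Hlf and Mecom. Gata2, a zinc finger factor of early progenitors, was at 68.4, 79.0, 72.4 and 86.1 CPM against 13.1 to 48.7 CPM. The rule genes themselves were at 363, 411, 288 and 296 CPM for Hlf, 892, 659, 668 and 669 CPM for Mecom, and 323, 376, 296 and 377 CPM for Kit. Ndn was not detected in Butyrate, B12 or B12+Butyrate and Neo1 not in B12+Butyrate.

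**Figure D2:**
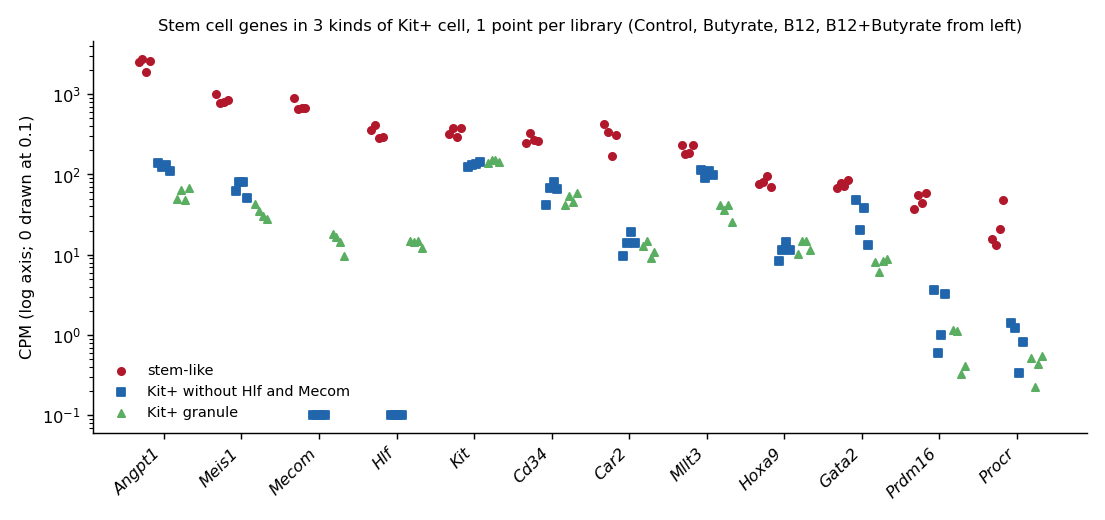
Levels (CPM, log axis) of 12 stem cell genes in stem-like cells, in Kit+ cells without Hlf and Mecom UMIs and in Kit+ granule cells; 1 point per library. Meis1, Angpt1 and Prdm16 are higher in stem-like cells in all 4 libraries.

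Across genes at 100 CPM or more, few set these cells apart at 4-fold in all 4 libraries (on the log2(CPM + 10) scale used throughout). Against Kit+ cells without Hlf and Mecom, 32 of 2666 genes were higher and 43 lower. Against Kit+ granule cells the counts were 71 and 45 of 2589, and against all other cells 73 and 108 of 2660. These genes describe the gate and are no test of it.

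Among the genes leading the contrast with all other cells, by the smallest log2 difference over libraries, were Angpt1 (5.77), the rule gene Mecom (5.51), the adhesion receptor Adgrl4 (4.82) and the cGMP-dependent kinase Prkg1 (4.72). Meis1 (4.50), the adhesion receptor Adgrg1 (4.32), Samd12 (4.16), the protease inhibitor Ctla2a (4.11), the RNA-binding protein Msi2 (3.64) and Cd34 (3.65) followed. They were singled out after their values were seen. Prkg1 was at 639, 439, 367 and 561 CPM against 1.91 to 20.5 CPM in Kit+ cells without Hlf and Mecom, and Samd12 at 272, 192, 185 and 256 CPM against 0.677 to 2.46 CPM. Among the genes furthest lower than in those Kit+ cells were Id2 (log2 -4.35), Cd74 (-3.79), H2-Aa (-3.69) and Irf8 (-3.44), genes of dendritic and monocytic cells that the comparison set held.

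Marker lists of other lineages were at different levels. The B cell list summed to 14.02 to 22.4 CPM with 4 or 5 of its 7 genes at 0 (Cd79a, at 0 by the rule, and Igll1 in every library), and endothelial and stromal genes to 1.121 to 3.15 CPM. Megakaryocyte genes summed to 156, 103, 145 and 156 CPM, carried mostly by the adhesion genes Selp (52.1 to 73.5 CPM) and Itga2b (18.6 to 36.1 CPM), while Gp1bb and Gp6 were at 0 throughout. The erythroid list summed to 426, 350, 178 and 331 CPM, nearly all of it the carbonic anhydrase gene Car2, while Car1, Hba-a1 and Ermap were at 0 in every library. Granulocyte-monocyte progenitor genes were limited by the rule. They summed to 1990, 2783, 2486 and 2710 CPM, against 30861 to 33218 CPM in Kit+ granule cells. The T and NK cell list summed to 157, 162, 136 and 186 CPM, beside 162 to 198 CPM in all other cells, with 1, 1, 5 and 6 of its 8 genes at 0. The neutrophil and monocyte lists are given below with the butyrate comparisons.

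Surface marker transcripts showed that the gate was not uniform. Stem cells that engraft for long are known to display Procr (EPCR) and Slamf1 (CD150) and to lack Flt3, Cd48 and, in adult mice, Cd34 on their surface, whereas multipotent progenitors gain these 3. Flt3, a cytokine receptor, had a UMI in 122 of 162 cells, Cd48 in 114 and Cd34 in 144. Procr had one in 33 cells and Slamf1 in 18. In Camp- and Ngp-rich cells, whose median depth was 15758.5 to 16844 UMIs, the shares were 1.05% for Flt3, 8.94% for Cd48, 0.648% for Cd34, 0.0656% for Procr and 1.501% for Slamf1.

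After thinning to 5000 UMIs, which left out 2 shallower cells, Flt3 was seen in 44.4% of 160 cells, Cd48 in 47.5%, Cd34 in 70.6%, Procr in 7.5% and Slamf1 in 5.0%. All stood above their background shares at this depth (0.366, 2.89, 0.191, 0 and 0.516%; no Procr UMI in 12024 cells). The gated cells therefore carried transcripts of both stem cell and multipotent progenitor surface markers, and they are named here by the gate.

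Without thinning, Procr was seen in 40.0% of the cells without Flt3 and 13.9% of those with it, and in 39.6% of those without Cd48 against 12.3% with it. Thinned, the same pairs were 8.99% against 5.63% and 10.7% against 3.95%, on 12 Procr cells in all. Dntt, the terminal transferase of lymphoid-primed progenitors, was seen in 39 cells, of which 37 also had Flt3; thinned, it was in 21.1% of Flt3 cells and 4.49% of the others. Cpa3, a mast cell protease also found in early progenitors, went the other way: thinned, Flt3 was in 16.7% of the 30 Cpa3 cells and 50.8% of the remaining 130. All 33 Procr cells had a Car2 UMI, as did 137 of all 162 cells. Thinned, Car2 was in 9 of the 12 Procr cells and in 97 of all 160. These are shares over cells of pooled libraries and are descriptions only.

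Single cells spread widely around these levels. The median cell held 832, 774, 776 and 962 CPM of Meis1 in Control, Butyrate, B12 and B12+Butyrate, with single cells from 0 to 4408 CPM. For Angpt1 the median cell held 1967, 2055, 1158 and 1221 CPM, while single cells ran from 0 to 17269 CPM. In B12+Butyrate 1 cell held 257 of the 1302 Angpt1 UMIs. Cd34 had medians of 227, 309, 280 and 271 CPM and at most 828 CPM in any cell.

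**Figure D3:**
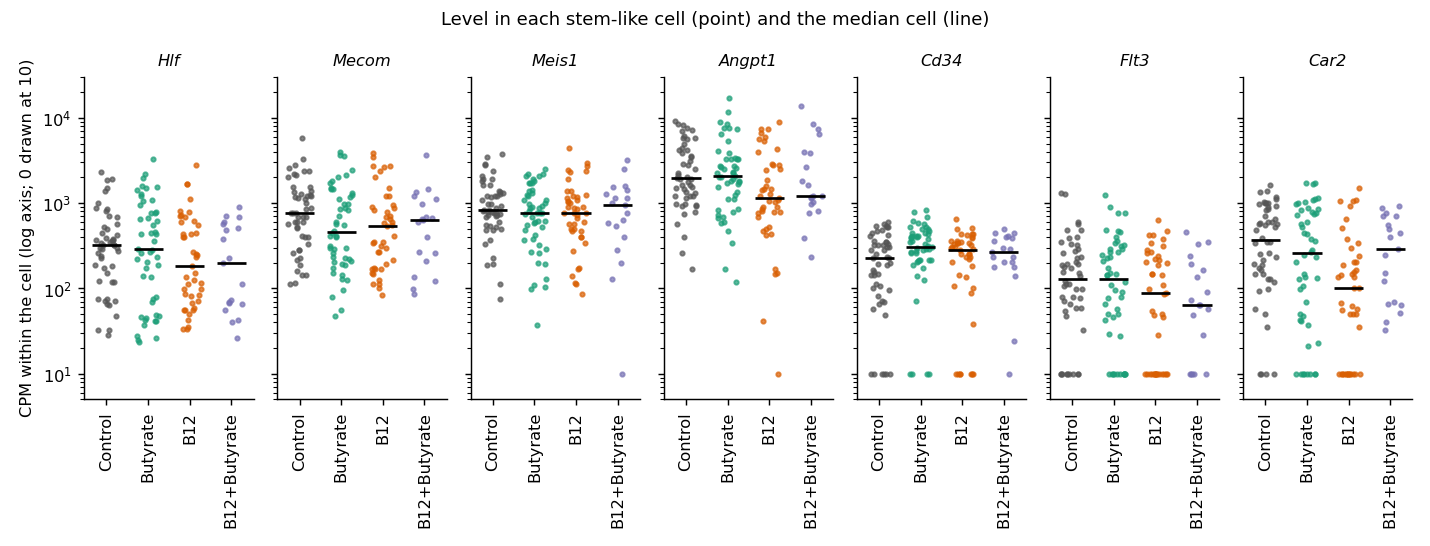
Level of 7 genes in each stem-like cell (points, CPM within the cell, log axis with 0 drawn at 10) and in the median cell (line) for the 4 libraries; Hlf and Mecom were used to choose the cells. The lines of Meis1 lie between 774 and 962 CPM, and cells without Flt3 or Car2 UMIs appear at the bottom of their panels.

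The cells varied in their cell cycle transcripts. Thinned to 5000 UMIs, 28.0, 31.2, 37.2 and 26.3% of the cells held at least 5 UMIs of the 19 G2/M genes, and 38.0, 37.5, 39.5 and 52.6% held at least 10 of the 18 S phase genes. The 95% intervals of the 4 libraries overlapped for both lists. Mki67, a marker of proliferating cells, was seen in 26.9% of the thinned stem-like cells, against 37.2% of Kit+ cells without Hlf and Mecom and 44.7% of Kit+ granule cells.

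Gene levels were then compared along the 2 treatments, each with and without the other agent. A gene was measured in a comparison if it reached 50 CPM in either library with a UMI in at least 10 stem-like cells of the higher one, and called at a difference of 2-fold or more. B12 against Control gave 23 genes higher (0.547% of 4203) and 19 lower (0.452%). Butyrate against Control gave 13 higher (0.313% of 4154) and 28 lower (0.674%), B12+Butyrate against B12 gave 10 higher (0.237% of 4220) and 28 lower (0.664%), and B12+Butyrate against Butyrate gave 15 higher (0.36% of 4172) and 16 lower (0.384%).

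The split between higher and lower depended on scaling in 2 comparisons. The share of calls that were higher was 31.7% for Butyrate against Control and 43.3% with totals that leave out mitochondrial, ribosomal protein, Malat1 and Neat1 UMIs. For B12+Butyrate against Butyrate it was 48.4%, then 33.3% with median-of-ratios size factors and 23.8% with those totals. With the main settings, stem-like cells thus differed at 2-fold in fewer than 1 in 100 measured genes in each direction. This did not hold in every alternative. With the reduced totals 84 of 5175 genes were called in B12+Butyrate against Butyrate, 23.8% of them higher. Many of these calls rest on 1 or a few cells, which is stated below where it applies.

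The 2 comparisons of each treatment use different libraries. With B12, 14 genes were at least 1.5-fold higher both without and with butyrate, which is 15.2% of the 92 genes higher in the first and 8.38% of the 167 higher in the second, where 4.32% of all 3866 genes were higher. Another 15 were lower in both, 17.2% of 87 and 11.7% of 128, beside 3.31% of all genes. With butyrate, 1 gene was higher in both (1.37% of 73 and 0.826% of 121, beside 3.13%) and 19 lower in both (14.3% of 133 and 14.96% of 127, beside 3.29%) of 3862. Genes at 1.5-fold in the first comparison also went the opposite way in the second. With B12, 9 of the 92 higher genes were lower and 9 of the 87 lower genes were higher. With butyrate, 13 of the 73 higher genes were lower and 8 of the 133 lower genes were higher. Over all genes measured in both, 52.2% had the same sign for B12 and 49.2% for butyrate.

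**Figure D4:**
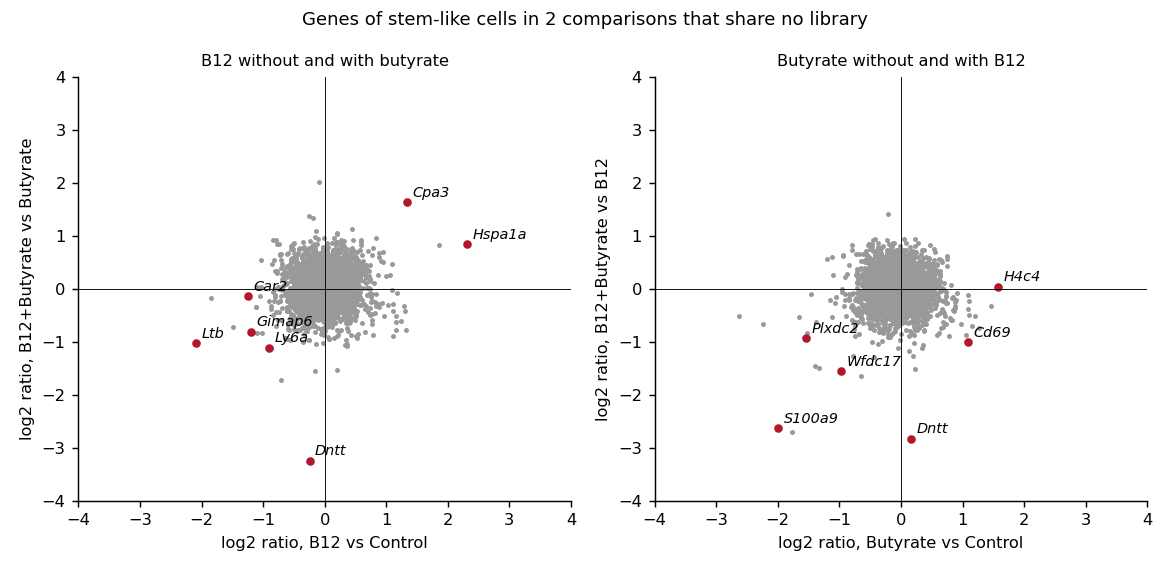
Log2 ratios of genes measured in stem-like cells in 2 comparisons that share no library, for B12 without and with butyrate (left) and for butyrate without and with B12 (right); each point is a gene and red points are named. Most genes scatter around 0, Cpa3 lies high and Ltb low in both B12 comparisons, and S100a9 lies low in both butyrate comparisons.

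Among genes that were higher with B12 in both comparisons, the inducible heat shock genes stood out. Hspa1a, an HSP70 chaperone, was at 54.9 CPM in Control (95% counting interval 40.6 to 72.6), 129 in Butyrate (109 to 151), 312 in B12 (277 to 349) and 238 in B12+Butyrate (197 to 285). Hspa1b, its near-identical neighbour, was at 154, 176, 582 and 319 CPM. Both B12 libraries were above both libraries without B12. The log2 ratios were 2.31 and 1.86 without butyrate and 0.84 and 0.82 with it. Hspa1a was also higher in Butyrate than in Control (log2 ratio 1.09), by 0.74 to 0.85 in 4 of the alternatives.

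Reads of these 2 genes can be assigned to either copy, so their separate levels are uncertain. In the median cell Hspa1b was at 64.1, 110, 380 and 163 CPM, so the difference did not rest on 1 cell. In all other marrow cells Hspa1a was at 217, 310, 275 and 225 CPM, an order that does not follow B12, and the Control stem-like cells were low by comparison. The 2 promoters are shown because the genes were high in the same libraries; these are the 250 bases before the start on mouse chromosome 17, minus strand, from RefSeq on GRCm38.p6 (chr17:34972157-34972406 for Hspa1a and chr17:34959239-34959488 for Hspa1b), 5′ to 3′, with a match to the heat shock element core GAANNTTC in capitals.
Hspa1a: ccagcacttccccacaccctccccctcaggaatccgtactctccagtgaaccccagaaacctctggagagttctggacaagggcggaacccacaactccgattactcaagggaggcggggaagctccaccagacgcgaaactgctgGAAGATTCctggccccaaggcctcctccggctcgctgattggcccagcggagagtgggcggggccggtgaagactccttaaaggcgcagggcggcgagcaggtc
Hspa1b: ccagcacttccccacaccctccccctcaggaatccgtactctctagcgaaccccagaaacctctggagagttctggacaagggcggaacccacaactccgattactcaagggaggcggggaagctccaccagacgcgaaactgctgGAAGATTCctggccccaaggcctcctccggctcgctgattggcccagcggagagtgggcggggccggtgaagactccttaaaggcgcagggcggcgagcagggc
The 250 bases differ at 3 positions, and each window holds 1 match, 104 bases before the start. GAANNTTC is its own reverse complement, so a match lies on both strands. It was found in 7.86% of 32851 RefSeq windows that run from 250 bases before to 50 after a start. Counted by gene, with a match in any of its windows, it was in 6 of the 7 heat shock genes with a window. These 6 are not independent, since Hspa1a and Hspa1b are near-identical here and the matching windows of Hspd1 and Hspe1 overlap. The 2 counts are therefore not on the same basis. A match is a description of these letters and not evidence of binding.

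Of the 9 heat shock genes, 8 were measured and all 8 were higher in B12 than in Control (median log2 ratio 0.48, beside -0.02 over all genes). The cochaperone Dnajb1 was at 93.0, 132, 156 and 122 CPM and the HSP110 gene Hsph1 at 60.5, 70.1, 107 and 100 CPM. For B12+Butyrate against Butyrate 7 of 8 were higher (median 0.28, beside 0.07), for Butyrate against Control 5 of 8 (0.15, beside -0.06) and for B12+Butyrate against B12 2 of 8 (-0.08, beside 0.03). In all other cells the medians of the 4 comparisons in this order were 0.12, -0.27, 0.32 and -0.19. The B12 against Control median was -0.03 in the few cells gated after thinning. At 5000 UMIs per cell, 4.0, 2.08, 16.3 and 15.8% of the stem-like cells held 30 or more UMIs of the list, with overlapping intervals.

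Cpa3 was the only gene called higher in both B12 comparisons. It was at 48.2 CPM in Control, 45.2 in Butyrate, 136 in B12 and 162 in B12+Butyrate, so the libraries with B12 did not overlap those without. The log2 ratios were 1.33 and 1.64. A single cell held 48 of the 130 UMIs in B12 and 34 of the 81 in B12+Butyrate, and 14, 16, 12 and 11 cells held any. Without a Kit requirement the first ratio was 0.27, and with a Mecom minimum of 1 UMI the second was 0.75. The first was also under 2-fold with a mitochondrial limit of 5% (0.66) and with at least 2 Hlf UMIs (0.97). The 6 mast and basophil markers, Cpa3 among them, summed to 102, 103, 208 and 220 CPM, with 3, 0, 1 and 2 of them at 0 (Fcer1a in Control and B12+Butyrate).

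Fancc, a DNA repair gene, was at 23.5, 47.9, 54.6 and 84.1 CPM. Apoe, the lipid carrier, was at 115, 76.3, 207 and 138 CPM. These and Ciao2a, Afg1l, Ganab and Lgals1 were 1.5- to 2-fold higher with B12 in both comparisons. None reached 2-fold in either.

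Ltb, the TNF family cytokine lymphotoxin beta, was at 95.3, 67.4, 14.7 and 28.0 CPM and was the only gene called lower in both B12 comparisons (log2 ratios -2.09 and -1.03). Its UMIs came from 21, 24, 10 and 7 cells; 1 Control cell held 27 of 85. With called doublets left out the second ratio was -0.96, just under 2-fold, and in the few cells gated after thinning it was -0.46.

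Ly6a (Sca-1), the surface antigen that defines the stem and progenitor gate in many mouse strains, was at 63.9, 50.6, 29.4 and 18.0 CPM, with UMIs in 21 of 50, 23 of 50, 12 of 43 and 4 of 19 cells. Its log2 ratios were -0.91 and -1.11. The second rested on 9 UMIs in B12+Butyrate and was also -0.91 with called doublets left out. Gimap6, a GTPase of lymphocytes and stem cells, was at 222, 165, 91.3 and 90.1 CPM (-1.20 and -0.81). The first ratio was -0.93 without the highest cells, of which that in Control held 56 of 198 UMIs. In the few cells gated after thinning it was -0.60. Both genes were lower in both libraries with B12 than in both without. In all other cells Ly6a was at 22.2, 28.0, 10.1 and 21.6 CPM and Gimap6 at 56.3, 94.1, 32.8 and 69.1 CPM, where only the B12 library was low.

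Klf6, a zinc finger factor induced by many stimuli, was at 215, 180, 102 and 96.2 CPM (log2 ratios -1.01 and -0.84); the first was between -0.71 and -0.998, and so under 2-fold, in 7 of the alternatives. The noncoding RNA Lncpint was at 248.8, 216, 131 and 94.1 CPM, and Ccser1 at 156, 136, 49.3 and 78.1 CPM. Shisa5, Stat4, Tmtc2 and Pik3ip1, an inhibitor of PI3K signalling, were also lower in both. Il1r1, the receptor for interleukin 1, was at 56.0, 45.2, 18.9 and 6.01 CPM, with only 3 UMIs in 3 of 19 cells in B12+Butyrate. Its log2 ratios were -1.19 in B12 against Control and -1.79 in B12+Butyrate against Butyrate, where neither library reached the 50 CPM needed to count it as measured.

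Car2, which made up nearly all of the erythroid list, was lowest in B12. It was at 420, 342, 172 and 310 CPM, a log2 ratio of -1.24 in B12 against Control that was -0.40 in the cells gated after thinning. The median cell held 369, 259, 100.1 and 287 CPM. At 5000 UMIs, 60.0% of Control cells (45.2 to 73.6%) held 2 or more UMIs of the erythroid list, and of the B12 cells 23.3% did (11.8 to 38.6%), so these intervals did not overlap. The share was 35.4% for Butyrate (22.2 to 50.5%) and 47.4% for B12+Butyrate (24.4 to 71.1%). Gata1, the erythroid master regulator, had at most 18.0 CPM in any library. Inpp4b, a phosphoinositide phosphatase, was at 161, 53.2, 37.8 and 46.1 CPM, high in Control only, and 50 of its 144 Control UMIs lay in 1 cell.

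**Figure D5:**
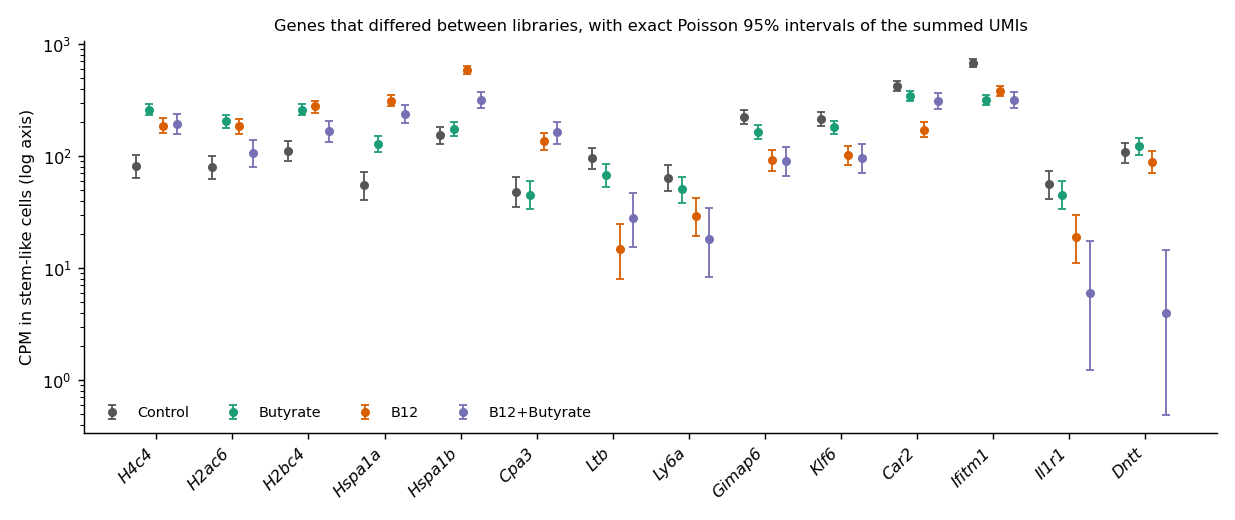
Level (CPM, log axis) of 14 genes in the stem-like cells of the 4 libraries; points are summed UMIs scaled to CPM and whiskers exact Poisson 95% intervals, which cover counting error only. Ltb, Ly6a, Gimap6 and Klf6 are lower and Hspa1a, Hspa1b and Cpa3 higher in both libraries with B12, and Dntt is lowest in B12+Butyrate.

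Several of the 13 genes called higher in Butyrate than in Control were histone genes, for which no list was fixed, so they are given singly. H4c4 was at 80.7, 260, 187 and 192 CPM in Control, Butyrate, B12 and B12+Butyrate, H2ac6 at 79.6, 205, 184 and 106 CPM, H2bc4 at 111, 259, 277 and 166 CPM and the linker histone H1f5 at 126, 307, 247 and 325 CPM. H2ac4, H3c6, H2ac8 and the centromere gene Cenpp were called higher too. In each of these the Control library was the lowest of the 4, so that the difference marks Control as much as butyrate: in B12 against Control H4c4 had a log2 ratio of 1.117, beside 1.57 in Butyrate against Control, and in B12+Butyrate against B12 it was 0.04. With a Mecom minimum of 1 UMI, which adds 4 Control and 6 Butyrate cells, H2ac4 (0.94), H3c6 (0.81), H1f5 (0.98), Cenpp (0.95), H2bc4 (0.94) and H2ac8 (0.87) fell short of 2-fold. Copies of histone genes are near-identical, and counts may be split among them.

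Mitosis genes had the same order. Of the 19 G2/M genes, 12 were measured in Butyrate against Control and all 12 were higher (median log2 ratio 0.63), and 10 of 11 were higher in B12 against Control (0.55), with none called in either. These 2 comparisons share the Control library. Top2a, the topoisomerase of dividing cells, was at 156, 287, 273 and 244 CPM, Cdk1, the mitotic kinase, at 37.0, 76.3, 79.7 and 62.1 CPM, and Nusap1, a spindle protein, at 29.1, 62.1, 56.7 and 42.1 CPM. In B12+Butyrate 2 of 11 were higher than in B12 (-0.32) and 1 of 11 than in Butyrate (-0.26).

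These medians depended on the gate. With a Mecom minimum of 1 UMI those against Control were 0.00 for B12 and 0.02 for Butyrate. With at least 2 Hlf UMIs they were 0.89 and 0.88, without called doublets 0.88 and 0.61 and without each gene's highest cell 0.54 and 0.67. In the cells gated after thinning they were -0.28 for B12 and -0.82 for Butyrate, where 2 genes and 1 gene were measured. The shares of cells with G2/M UMIs given above did not differ beyond their intervals. The 18 S phase genes had medians of 0.19 in B12 against Control (11 of 14 higher), -0.01 in Butyrate against Control (7 of 15), 0.16 in B12+Butyrate against B12 (12 of 15) and 0.29 in B12+Butyrate against Butyrate (13 of 16). Hells, a chromatin remodeller of replicating cells, was at 138, 116, 168 and 216 CPM.

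Among the genes lower with butyrate in both comparisons were S100a9 and S100a8, and a large part of their UMIs in Control and B12 lay in single cells. S100a9, a calcium-binding protein of neutrophils, was at 597, 143, 893 and 136 CPM, with log2 ratios of -1.99 without and -2.63 with B12. In Control 1 cell held 292 of the 533 UMIs and in B12 1 cell held 377 of 851, while the median cell was at 256, 125, 232 and 135 CPM. Without the highest cell of each library the first ratio was -0.94 and the second -1.90. S100a8, its partner, was at 377, 104, 680 and 96.2 CPM (-1.76 and -2.70), and the ratios were -0.84 and -1.90 without its highest cells. Its median cell was at 134, 101, 136 and 71.9 CPM.

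The 8 neutrophil markers, of which the rule limited Camp and Ngp, summed to 1253, 327, 1910 and 327 CPM, with none at 0. The 6 monocyte markers summed to 447, 191, 344 and 437 CPM. At 5000 UMIs per cell, 5, 0, 3 and 0 cells held 10 or more neutrophil list UMIs, and the intervals of these shares overlapped. Lyz2, the lysozyme of monocytes and neutrophils, was at 1064, 164, 994 and 695 CPM with 340 of 949, 10 of 185, 399 of 947 and 272 of 347 UMIs in the highest cell; its log2 ratio in B12+Butyrate against Butyrate was 2.02, and 0.02 without the highest cells. Hp and Gda, other genes of maturing granulocytes, were lower as well (log2 ratios -1.40 and -1.45, and -1.32 and -1.50), but with called doublets left out the ratio of Gda with B12 was 0.59 and that of Hp -0.65. The median of the neutrophil list in Butyrate against Control was -1.76, and -1.82 with called doublets left out. The first rested on 3 measured genes: S100a8, S100a9 and Camp, which the rule limited. The part of captured RNA of other cells in these values was not tested.

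Outside the granule genes, Plxdc2, a plexin-domain membrane protein, was at 158, 47.9, 81.8 and 38.1 CPM (log2 ratios -1.54 and -0.93), and Pbx3, a homeobox partner of Meis1 and Hox proteins, at 173, 53.2, 153 and 82.1 CPM (-1.53 and -0.82). For both genes each butyrate library was below its partner without butyrate. Wfdc17, an antiprotease, was at 155, 73.6, 166 and 50.1 CPM, and in all other cells too each butyrate library was below its partner without butyrate (267, 135, 211 and 99.8 CPM). App and Add3 were 1.5- to 2-fold lower in both. Plcb1, a phospholipase, had 0 UMIs in Butyrate, which allows up to 2.66 CPM (3 counts of the total), against 57.2, 76.6 and 118 CPM in Control, B12 and B12+Butyrate; the highest cells of these held 17 of 51, 39 of 73 and 37 of 59 UMIs.

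Lymphoid-primed genes were lowest with both agents. Dntt was at 108, 122, 89.2 and 4.01 CPM, found in 11, 12, 14 and 2 cells, with log2 ratios of -2.82 against B12 and -3.24 against Butyrate. A single cell held 71 of 96 UMIs in Control and 44 of 85 in B12. With a Mecom minimum of 1 UMI, which adds 1 cell to B12+Butyrate, the ratios were 0.22 and -0.20. Flt3 was at 223, 198, 153 and 122 CPM and Satb1, a chromatin organiser of lymphoid progenitors, at 192, 222, 187 and 120 CPM. Of the 8 lymphoid-primed markers, 4 were measured, and all 4 were lower in B12+Butyrate than in B12 (median -0.53) and than in Butyrate (-0.74), with only Dntt called. At 5000 UMIs, 22.0, 27.1, 18.6 and 0% of the cells held 5 or more UMIs of this list; the exact 95% upper bound for 0 of 19 cells is 17.6%, which overlaps the interval of each other library.

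Interferon response genes differed mainly by Ifitm1, a membrane protein that restricts viral entry and is expressed in stem cells. It was at 676 CPM in Control (623 to 732), 317 in Butyrate (285 to 351), 381 in B12 (343 to 422) and 316 in B12+Butyrate (269 to 370). Control lay above the 3 treated libraries, and the log2 ratios were -1.07 for Butyrate and -0.81 for B12 against Control, and -0.26 and 0.00 when the second agent was added. The first was under 2-fold in 5 of the alternatives, at -0.71 to -0.96. In all other cells Ifitm1 was at 83.3, 28.1, 73.7 and 31.9 CPM, lower in the 2 butyrate libraries only. Of the 26 genes of the list only 6 were measured in B12 against Control and 7 in Butyrate against Control, Ifitm1 among them. The list medians were -0.10 and -0.17, beside -0.02 and -0.06 over all genes.

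At 5000 UMIs, 44.0% of Control cells (29.99 to 58.7%) held 10 or more interferon list UMIs, against 20.8% (10.5 to 35.0%), 20.9% (10.0 to 36.0%) and 21.1% (6.05 to 45.6%). These intervals overlapped, and the list includes Ifitm1, so the shares are not separate from its level. Ifitm3 was at 359, 252, 430 and 431 CPM. Of the class I presentation genes 4 of 10 were higher in B12 than in Control (median -0.14) and 2 of 10 in Butyrate (-0.10), with H2-K1 at 985 to 1088 CPM throughout. Class II genes were called in B12 against Control for H2-Aa (34.7 and 103 CPM), but 82 of its 98 B12 UMIs lay in 1 cell and the log2 ratio of 1.33 was -0.51 without it. For Cd74 125 of 156 B12 UMIs lay in 1 cell, and the ratio of B12+Butyrate to B12, -1.27, was 0.12 without it.

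The transcription factors of stem cells had medians close to those of all measured genes. Of 24 listed, 14 or 15 were measured in each comparison. None was called, but only 0.237 to 0.674% of all measured genes were called per direction, so this says little for so short a list. The medians were -0.04, -0.01, 0.04 and 0.11 in B12 against Control, Butyrate against Control, B12+Butyrate against B12 and B12+Butyrate against Butyrate. Over all measured genes they were -0.02, -0.06, 0.03 and 0.07. Runx1, the factor that founds definitive haematopoiesis, was at 1222, 1371, 1179 and 1434 CPM, Etv6 at 1854, 1940, 2051 and 2115 CPM, and Fli1 at 343, 341, 359 and 373 CPM. Erg, needed for stem cell self-renewal, was at 266, 250, 260 and 218 CPM. Hoxa7, another homeobox factor, differed by 0.58 in B12+Butyrate against Butyrate.

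The quiescence and G1 regulators had medians of -0.06, -0.03, 0.00 and -0.03 over 9 genes, beside -0.02, -0.06, 0.03 and 0.07 over all genes. Cdk6, a G1 kinase that governs exit from quiescence, was at 1460 to 1562 CPM.

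DNA methylation enzymes bear on the genotype. Tet2 itself, of which the cells carry 1 intact copy, was at 111 CPM in Control (90.2 to 135), 72.7 in Butyrate (57.9 to 90.3), 75.5 in B12 (59.1 to 95.1) and 66.1 in B12+Butyrate (45.5 to 92.8). Control was the highest, with log2 ratios of -0.55 for Butyrate and -0.50 for B12 against Control. Its interval overlapped that of every treated library, and those overlapped one another. Such overlap alone does not put the difference within counting error, and the difference was not tested. UMI counts per gene do not tell the alleles apart and check no genotype. Dnmt3a was at 91.9, 78.1, 82.9 and 64.1 CPM, and Dnmt1, the maintenance methyltransferase, at 140, 147, 162 and 164 CPM. Of the 6 Tet and Dnmt genes 1 was higher in B12 than in Control (median -0.35, beside -0.02 over all genes) and 2 in Butyrate (-0.20, beside -0.06). None was called, as was the case for nearly all measured genes.

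Genes that handle the 2 agents were mostly below the level needed to compare them. Of 12 cobalamin uptake and use genes, 2 were measured: Mtr, the B12-dependent methionine synthase, at 71.7, 75.4, 57.7 and 70.1 CPM, and Abcc1, an export pump, at 79.6, 109, 118 and 120 CPM. Of 10 butyrate transport, sensing and oxidation genes 3 were measured, with medians between -0.14 and 0.15. The folate and methionine cycle had 5 of 5 genes higher in B12 than in Control (0.21) and 7 of 8 higher in B12+Butyrate than in Butyrate (0.31). Of the same list 4 of 5 were higher in Butyrate than in Control (0.14) and 6 of 8 in B12+Butyrate than in B12 (0.17). Shmt2, the mitochondrial serine hydroxymethyltransferase, was at 28.0, 30.2, 30.4 and 66.1 CPM. The histone deacetylases, which butyrate inhibits as proteins, had medians of -0.17, -0.10, 0.16 and -0.02 over 6 genes. Over all genes the medians were -0.02, -0.06, 0.03 and 0.07. No deacetylase gene was called, as was the case for nearly all measured genes.

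Among the remaining lists, nuclear respiratory chain genes were higher in B12 than in Control for 12 of 12, by a median of only 0.12, and glycolysis genes for 8 of 9, by 0.19. Several genes were called only where B12+Butyrate, the library with the fewest cells, was compared. Against B12 these were Tnfsf13os (1.56), Cd274, the checkpoint ligand PD-L1 (14.7 and 58.1 CPM), Parp4 (1.30) and Nob1 (1.07), and against Butyrate Ptpn9 (1.69), Smo, the Hedgehog signal transducer (24.8 and 78.1 CPM), and Gfus (1.21), with Epb41l4b (-1.55) and Nbea (-1.13) lower. Arpc1a, an actin-nucleating subunit, was called in both (220 CPM against 76.6 and 79.0), and 40 of its 110 UMIs lay in 1 cell; without it the log2 ratios were 0.94 and 0.90. Ccl4, a chemokine, was at 37.0, 46.1, 99.7 and 8.01 CPM with 38 of the 95 B12 UMIs in 1 cell, and Atf3, a stress factor, at 61.6, 35.5, 77.6 and 18.0 CPM.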

How the data were processed

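For each of 4 libraries the authors deposited a matrix of raw UMI counts over 33696 genes. Per the file headers it came from Cell Ranger 7.1.0, and per the submitters' processing notes the build was GRCm39. The counting of intron reads and the filtering of barcodes were not given in the sources used here. Cells entered with 500 or more genes, 1000 or more UMIs and no more than 10% of UMIs from mitochondrial genes. UMIs were then summed over the stem-like cells of a library. Members and gene lists were chosen with earlier results of these data known.

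Each group is 1 library, so values stand without p-values. Shares have exact Clopper-Pearson and CPM exact Poisson 95% intervals, and ratios of shares a normal approximation on the log scale. Log2 ratios use a pseudocount of 10 CPM. Doublets were called against simulated ones (0.8% per 1000 cells, 30 principal components, 50 neighbours), kept, and left out as an alternative. Thinning drew 5000 UMIs per cell. As an alternative for ratios, medians and calls, all cells were thinned before the gate, which left 29, 24, 19 and 10 stem-like cells. For shares of cells with given UMIs, the gated cells were thinned, which left 50, 48, 43 and 19. By rule the text could name the gate and marker genes, in each comparison the 8 highest and 8 lowest called genes, up to 10 genes per direction at 1.5-fold or more in both comparisons of a treatment, and the list members called or furthest apart. Genes named outside this rule, chosen after their values were seen, are further members of the lists and the genes leading the contrasts with other cells. Across alternatives a list was counted as differing at a median log2 ratio of 0.25 or more, in either direction, with 80% of its measured genes on 1 side. Leaving out, for each gene, the cell with most of its UMIs was an alternative chosen after seeing the data. The calculation was tested on simulated Poisson counts with known changes and the cell depths of Control on both sides. These had no other spread between cells, so calls that rest on few cells were not covered. Promoters came from RefSeq (GRCm38.p6) by symbol and were joined to no other coordinates. The software was matplotlib 3.10.9, scikit-learn 1.9.0, pandas 2.3.3, scipy 1.17.1 and numpy 2.4.6 under Python 3.11.15. A few genes are not reported here.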

Additional observations from a re-analysis of the deposited data

Results flagged for a closer look

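The share of stem-like cells moved in opposite directions with butyrate: by a log2 ratio of 0.37 without B12 (Butyrate against Control) and -1.10 with it (B12+Butyrate against B12). The interval of the first included no difference, and the difference between the 2 ratios was not tested, since each group is 1 library.

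Cd69, an early activation antigen, also went opposite ways with butyrate: its log2 ratio was 1.09 without B12 (49.3 CPM in Control and 116 in Butyrate) and -1.003 with it (139 in B12 and 64.1 in B12+Butyrate). In B12+Butyrate 20 of its 32 UMIs lay in 1 cell. This difference was not tested either.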

How the results depend on the processing

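The ratios of shares kept their direction in all 24 alternatives, with log2 ratios of -0.50 to -0.10 for B12 against Control, 0.10 to 0.53 for Butyrate against Control, -1.24 to -0.89 for B12+Butyrate against B12 and -1.68 to -1.47 for B12+Butyrate against Butyrate. The numbers of genes called (42, 41, 38 and 31 in this order) were less stable. For B12 against Control there were 68 with at least 2 Hlf UMIs, 26 with at least 1 Mecom UMI, 75 without called doublets, 71 with totals without mitochondrial, ribosomal protein, Malat1 and Neat1 UMIs, 92 from 20 CPM, 160 without a filter and 232 thinned. For Butyrate against Control there were 27 with at least 1 Mecom UMI, 65 with a pseudocount of 1 CPM, 76 from 20 CPM, 149 without a filter and 264 thinned. For B12+Butyrate against B12 there were 59 with at least 2 Hlf UMIs, 58 without each gene's highest cell, 67 with the reduced totals, 68 with the mean of each cell's CPM, 76 with a pseudocount of 1 CPM, 111 from 20 CPM, 278 without a filter and 118 thinned. For B12+Butyrate against Butyrate these 8 counts were 72, 56, 84, 73, 81, 109, 268 and 166. Thinning before the gate leaves 29, 24, 19 and 10 cells with 5000 UMIs each, so few genes are measured.

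Of 78 calls of named genes, 49 were kept thinned, 62 with at least 1 Mecom UMI, 66 without each gene's highest cell, 66 with the mean of each cell's CPM, 68 without called doublets and 72 to 78 in the other 7 alternatives. Of 1139 recomputed list medians 143 changed sign, and 9 of these belonged to lists counted as differing: granulocyte-monocyte progenitor genes in B12 against Control (-0.18 thinned) and in Butyrate against Control (-0.41 thinned, -0.023 without a Kit requirement), G2/M genes against Control (-0.28 for B12 and -0.82 for Butyrate, thinned) and in B12+Butyrate against Butyrate (0.027 with the mean of each cell's CPM), heat shock genes in B12 against Control (-0.033 thinned), and myeloid regulators in B12+Butyrate against Butyrate (-0.22 thinned, -0.0023 without the highest cell). Among the others were MHC class II genes in B12 against Control (1.06, and -0.60 thinned and -0.40 without the highest cell) and in B12+Butyrate against B12 (-0.86, and 0.19 without it), neutrophil genes in B12 against Control (0.57, and -0.34 thinned and -0.30 with the mean of each cell's CPM) and heat shock genes in B12+Butyrate against B12 (-0.084, and 0.39 thinned). Single genes that changed sign were, thinned, Hp (0.55), Arpc1a (-0.58), Nob1 (-0.47) and Dipk1b (-0.060) in B12+Butyrate against B12, Arpc1a (-0.65) and Smo (-2.12) in B12+Butyrate against Butyrate, H3c6 in Butyrate against Control (-0.25) and Ccl4 in B12 against Control (-0.33). Gda (0.59 without called doublets), Dntt (0.22 with at least 1 Mecom UMI) and Cd74 (0.12 without its highest cell) in B12+Butyrate against B12, and H2-Aa in B12 against Control (-0.51 without its highest cell), did so too. Beyond what the construction of each alternative shows, the cause was not tested. No paired analysis was possible because each group has 1 library. The B12+Butyrate levels rest on 19 cells, where a gene with 3 UMIs reads 6.01 CPM.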
